A study of Rattus norvegicus with 12 samples.

Results

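Gstp1 (ENSRNOG00000018237) and Afp (ENSRNOG00000002889), a pair of genes used to mark altered cells in rat liver, were followed through every library of an RNA-seq study of chemically induced liver cancer. They are 2 of the 34194 gene IDs in the deposited table, picked out by their IDs by a rule that sets no limit on their values. Livers of male Wistar rats were sequenced at week 20, with 3 livers in each of 4 groups. At the start 12 rats were randomized to each group, and fewer were left for examination at the end in NDEA and NDEA+FYT. Control rats drank water and were injected with saline. NDEA rats drank water and were injected intraperitoneally with 25 mg/kg of N-nitrosodiethylamine, a liver carcinogen, 2 times a week from week 2 to week 9. NDEA+CFT-1 rats got the same injections and drank an infusion of CFT-1, a tea variety rich in epigallocatechin gallate (EGCG), for 20 weeks. NDEA+FYT rats also got these injections and drank an infusion of Fuyun6, a common green tea, over the same 20 weeks. Each library was taken as 1 liver of 1 rat, since 3 liver samples per group were collected, though the sources do not say so outright. Every animal in the 3 injected groups carries the carcinogen treatment. Whether a liver piece held a nodule is not given in the sources used here.

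Gstp1 encodes the placental form of glutathione S-transferase, an enzyme that joins glutathione to reactive compounds. Normal adult rat hepatocytes hold little of it, whereas bile duct cells express it and the foci and nodules that form after a carcinogen stain for it, which made it a standard marker of preneoplastic rat liver. Afp encodes alpha-fetoprotein, a serum protein of the albumin family that the fetal liver secretes. Its gene is repressed after birth and is expressed again in some regenerating livers, in oval cells and in a share of hepatocellular carcinomas.

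Promoters of both genes are shown because the pair, read as markers of the same lesions, varied so differently among these livers. The sequences are the 250 bases before the transcription start in RefSeq on build GRCr8, and both lie on the minus strand, at chr1:210769706-210769955 for Gstp1 and at chr14:17875646-17875895 for Afp. The expression values rest on another build, Rnor_6.0. Capitals mark matches, on either strand, to the antioxidant response element core and the TATA box core in Gstp1 and to the HNF1 half-site, the FOXA core and the TATA box core in Afp, each spelled out after the sequences.
Gstp1: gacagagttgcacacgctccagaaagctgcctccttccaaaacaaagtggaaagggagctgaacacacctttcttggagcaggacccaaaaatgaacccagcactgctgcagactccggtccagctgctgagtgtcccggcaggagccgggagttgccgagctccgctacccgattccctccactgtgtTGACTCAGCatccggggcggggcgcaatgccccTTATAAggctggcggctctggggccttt
Afp: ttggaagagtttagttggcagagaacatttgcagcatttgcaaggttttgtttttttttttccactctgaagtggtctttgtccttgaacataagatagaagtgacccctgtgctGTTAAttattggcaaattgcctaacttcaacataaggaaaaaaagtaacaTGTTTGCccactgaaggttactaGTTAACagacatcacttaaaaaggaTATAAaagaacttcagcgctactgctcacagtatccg
In the Gstp1 stretch, 1 match to the antioxidant response element core, TGACNNNGC, begins 61 bases before the start and overlaps a match to the AP-1 motif TGANTCA. A GC box, GGGCGG, follows at 47 bases, and the TATA box core, TATAA, matches at 28 bases on the minus strand of the gene and at 27 bases on its plus strand. The Afp stretch holds the TATA box core at 37 bases, the FOXA core TGTTTGC at 85 bases and 3 matches to the HNF1 half-site motif GTTAA, which begin at 135, 62 and 61 bases, the last on the opposite strand and overlapping its neighbour. HNF1 and FOXA are transcription factors of hepatocytes. Of 33469 RefSeq rat promoter stretches of the same 250 bases, searched on both strands, 10.1% hold the antioxidant response element core, 6.34% the AP-1 motif, 30.5% the GC box, 24% the TATA box core, 22.2% the HNF1 half-site and 4.16% the FOXA core. These are matches of letters only. On the chromosome, the nearest protein-coding RefSeq genes are Ndufv1 and Gstp3 for Gstp1, and Afm and Alb for Afp.

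Expression was deposited as FPKM, the fragments counted on a gene over the length of its transcript and the mapped fragments of the library, a unit in which genes of unlike length can be compared. The FPKM of each gene moved in equal steps, and with each step taken as 1 read, whole read numbers were recovered for 24718 of the 24718 IDs above 0. They are the smallest whole numbers that fit: if a step stood for several reads, the reads and depths given here would be too low by that factor and the counting intervals would be those of the smaller numbers. Depth ran from 15495482 fragments in NDEA replicate 1 to 25718747 fragments in NDEA+CFT-1 replicate 1, with a median of 20920043 fragments. NDEA replicate 1 stood apart, with a Pearson correlation of 0.887 to 0.934 with the other libraries across genes. For Gstp1, Control replicate 2 and NDEA replicate 2 lay away from the other livers of their groups, in the direction of the other group. The labels were kept as given, and whether these libraries carry the right labels was not tested. Gstp1 differences that rest on them are given with and without each. The intervals given with reads are exact Poisson intervals at 95% and cover counting error only. Markers that would check the liver label, or show other cell types moving with the genes, were not analysed here because IDs and symbols are not paired in the tables used. In such tissue RNA, more cells expressing a gene and more RNA per cell cannot be told apart.

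Gstp1 spanned 14 to 3433 FPKM across the 12 livers. In the 3 Control livers, replicates 1, 2 and 3 had 20.6, 321 and 14 FPKM, from 360, 4650 and 266 reads. The Control livers were thus not alike: replicate 2 was far above the other pair, and the highest value was 22.9 times the lowest. In the 3 NDEA livers the values were 3433, 43.4 and 1061 FPKM, from 40905, 690 and 18279 reads. Replicate 1 of this group had the highest Gstp1 of the study and replicate 2 a value below that of Control replicate 2, a range of 79.0 times within the group. In replicate 1, Gstp1 alone took 0.264% of all mapped fragments and ranked 27 among all IDs by FPKM, whereas in Control replicate 3 it took 0.00108% and ranked 3374.

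The tea groups were less spread. In NDEA+CFT-1 the livers had 204, 751 and 1034 FPKM, from 4027, 12228 and 16231 reads, and in NDEA+FYT they had 174, 661 and 818 FPKM, from 2691, 9004 and 15574 reads. The highest liver was 5.08 times the lowest in NDEA+CFT-1 and 4.69 times in NDEA+FYT. In both groups replicate 1 was the low liver and lay below Control replicate 2. Counting error was small beside these gaps, since even the lowest value, in Control replicate 3, had a 95% interval of 12.4 to 15.8 FPKM.

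**Figure D1:**
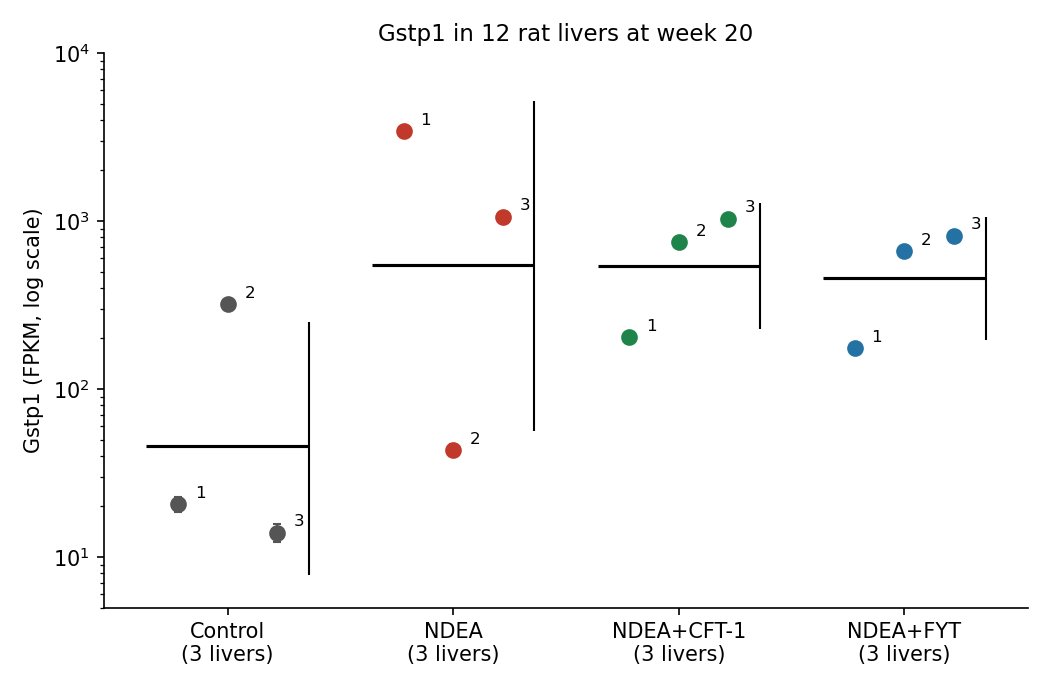
Gstp1 in each of the 12 livers, with the group on the horizontal axis and FPKM on a logarithmic vertical axis. Points are livers, numbered by replicate, with their 95% counting intervals where these are wider than the point. Horizontal lines are group means of log2(FPKM + 1) drawn back as FPKM, and vertical lines are ± 1 SD on that scale. Control replicate 2, at 321 FPKM, lies among the injected livers, and NDEA replicate 2, at 43.4 FPKM, lies between the other Control livers and the rest.

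The comparison of NDEA with Control asks what the carcinogen alone did. Mean Gstp1 was 1512 ± 1739 FPKM (SD, n = 3) in NDEA and 119 ± 175 FPKM (SD, n = 3) in Control. On the log2(FPKM + 1) scale the difference was 3.53 (SE 1.49), a fold of 11.6 with a 95% interval of 1.21 to 111. In limma's test over 11854 genes this gave an unadjusted p of 0.0361 and an adjusted p of 0.524, so Gstp1 was not called. The test called 0% of genes at an adjusted p under 0.05 and 8.7% of genes (1031) at an unadjusted p under 0.05, so an unadjusted value of this kind was not rare in this comparison, and limma's voom method on the recovered reads called 0 genes too. An exact two-sided permutation test of the pair of groups gave p = 0.2, where 3 livers against 3 cannot go below 0.1. A limma fit of only these groups gave an unadjusted p of 0.0813 and an adjusted p of 0.733. Without Control replicate 2 the difference was 4.92 (adjusted p = 0.384 by limma), without NDEA replicate 1 it was 2.21 (adjusted p = 0.998 by limma) and without NDEA replicate 2 it was 5.34 (adjusted p = 0.204 by limma). With REML library weights, an estimate that did not converge, it was 4.89 and called (adjusted p = 0.00843 by limma), as were 1613 of the 11854 genes.

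The same Control livers served for the other comparisons with Control, which are therefore not independent of each other. Gstp1 averaged 663 ± 422 FPKM (SD, n = 3) in NDEA+CFT-1, a log2 difference from Control of 3.53 with an adjusted p of 1 and an unadjusted p of 0.0365 by limma. It averaged 551 ± 336 FPKM (SD, n = 3) in NDEA+FYT, a log2 difference from Control of 3.28 with an adjusted p of 0.844 and an unadjusted p of 0.0491 by limma. Among all genes, 0% passed the adjusted threshold in either comparison, and 3.25% (385) in NDEA+CFT-1 and 3.8% (450) in NDEA+FYT had an unadjusted p under 0.05. In each comparison, 2 of the 3 injected livers lay above the highest Control liver and the groups overlapped, with an exact permutation p of 0.2 each. Without Control replicate 2 the log2 differences were 4.91 (30.1-fold) for NDEA+CFT-1 and 4.67 (25.4-fold) for NDEA+FYT, and without Control replicate 3 they were 2.70 (6.50-fold) and 2.45 (5.48-fold). None of these passed the adjusted threshold. In limma fits of only the groups compared, the unadjusted p was 0.0141 for NDEA+CFT-1 and 0.0254 for NDEA+FYT, and neither passed after adjustment.

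All 9 NDEA-injected livers were then set against the 3 Control livers. Gstp1 ran from 43.4 to 3433 FPKM in the injected livers, with a median of 751 FPKM, and 6 of 9 injected livers exceeded the highest Control liver. Every injected liver lay above the other pair of Control livers. The difference of the group means was 3.45 on the log2 scale (SE 1.22, 95% interval 0.78 to 6.11), a 10.9-fold difference. Limma gave an unadjusted p of 0.0156, which ranked Gstp1 146 of 11854 genes, but an adjusted p of 0.822. In this comparison 0% of genes were called after adjustment and 4.86% (576) before it. The exact permutation test gave p = 0.0364, or 0.509 after adjustment over the 14 comparisons of the pair of genes, where the smallest p possible was 0.00909.

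Control replicate 2 and NDEA replicate 2 had Gstp1 levels unlike the others of their groups, so the result was computed without each. Without Control replicate 2 the injected livers differed from Control by 4.83 on the log2 scale, a 28.5-fold difference, with an adjusted p of 0.549 by limma. Without NDEA replicate 2 the difference was 4.05, with an adjusted p of 0.495 by limma. Without Control replicate 3 it was 2.62, a 6.15-fold difference, with an adjusted p above 0.999 by limma. The difference was positive in each of the 12 fits that left out a single liver, and its adjusted p passed the threshold in none of them. With the REML library weights it was 3.90 and called (adjusted p = 0.0332 by limma), as were 405 of the 11854 genes.

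The tea infusions were compared within the injected groups. NDEA+CFT-1 and NDEA differed by -0.01 on the log2 scale for Gstp1, with a 95% interval of -3.27 to 3.26 and an adjusted p of 0.999 by limma. NDEA+FYT and NDEA differed by -0.26, with an interval of -3.52 to 3.01 and an adjusted p of 1.00 by limma. NDEA+CFT-1 and NDEA+FYT differed by 0.25, with an interval of -3.02 to 3.51 and an adjusted p of 0.983 by limma. As folds, these intervals ran from 0.104 to 9.55, from 0.0872 to 8.04 and from 0.124 to 11.4, so the livers do not show that the groups are alike in Gstp1. The groups overlapped in all 3 comparisons, with both tea groups inside the range of the NDEA livers. Over all genes 0% were called after adjustment in these comparisons, and 12.6% (1494), 1.48% (176) and 5.42% (642) had an unadjusted p under 0.05, in the order given. None of the 3 signs was stable. Without NDEA replicate 2 the NDEA+CFT-1 and NDEA+FYT differences from NDEA were -1.82 and -2.06 (adjusted p = 0.420 and 0.830 by limma), and without NDEA replicate 1 they were 1.32 and 1.07 (adjusted p = 0.812 and 0.999 by limma). The difference between the tea groups became -0.44 without NDEA+FYT replicate 1, and that of NDEA+CFT-1 from NDEA became 0.26 once libraries were scaled by the median of ratios. With the REML library weights NDEA+CFT-1 minus NDEA was -1.87 (unadjusted p = 0.0231, adjusted p = 0.0595 by limma), and 4352 of the 11854 genes were called in that fit.

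Afp was below Gstp1 in every liver and varied far less, from 9.28 to 20.8 FPKM. Its rank among all IDs by FPKM ran from 2836 in Control replicate 2 to 5034 in NDEA+CFT-1 replicate 1. Control replicates 1, 2 and 3 had 10.6, 20.8 and 12.4 FPKM, from 480, 778 and 612 reads. The NDEA livers had 15.9, 11.3 and 11.2 FPKM, from 491, 463 and 498 reads. The highest Afp of the study was thus in an uninjected liver, Control replicate 2, and the next in NDEA replicate 1, the liver with the most Gstp1. NDEA+CFT-1 livers had 9.28, 10.3 and 12.6 FPKM, from 475, 435 and 514 reads, and NDEA+FYT livers had 13.2, 11.9 and 10.8 FPKM, from 525, 418 and 531 reads. NDEA+CFT-1 replicate 1 had the lowest Afp of the study, and the other tea livers had 10.3 to 13.2 FPKM.

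**Figure D2:**
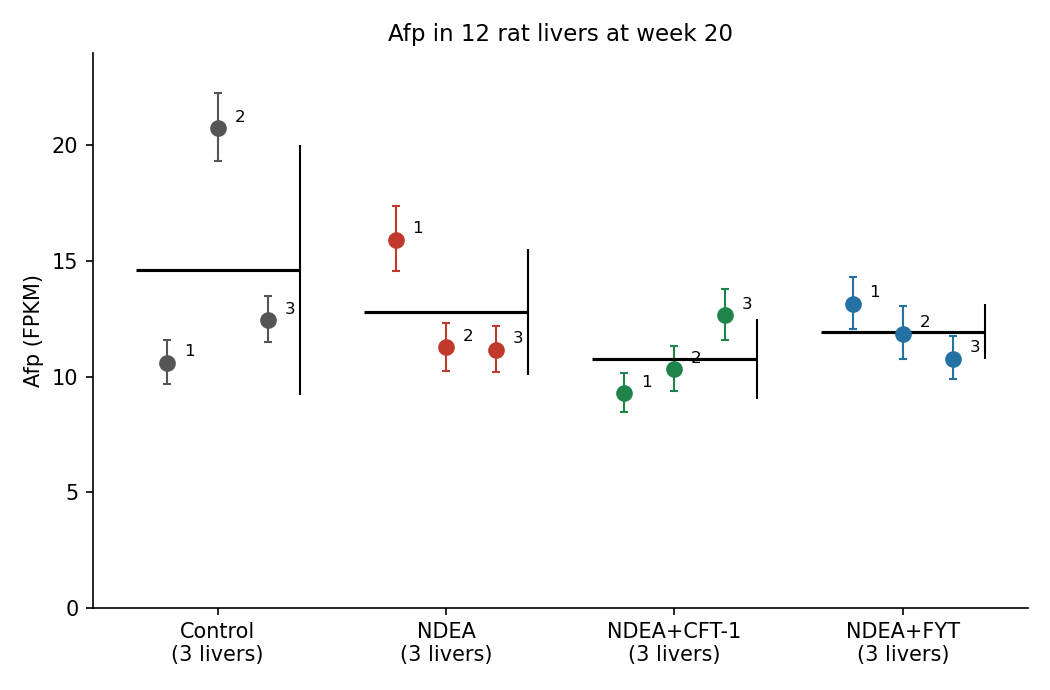
Afp in each of the 12 livers, with the group on the horizontal axis and FPKM on a linear vertical axis from 0. Points are livers, numbered by replicate, with 95% counting intervals, horizontal lines are group means and vertical lines are ± 1 SD. Control replicate 2, at 20.8 FPKM, is above all others, and the remaining 11 livers lie between 9.28 and 15.9 FPKM.

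Mean Afp was 14.6 ± 5.41 FPKM in Control, 12.8 ± 2.72 in NDEA, 10.8 ± 1.72 in NDEA+CFT-1 and 11.9 ± 1.19 in NDEA+FYT (SD, n = 3 each). The log2 difference of NDEA minus Control was -0.14 (SE 0.24), with a 95% interval of -0.66 to 0.38 and an adjusted p of 0.796 by limma. As a fold this interval ended at 1.30, whereas that of Gstp1 ended at 111. NDEA+CFT-1 and NDEA+FYT differed from Control by -0.36 (adjusted p = 1 by limma) and -0.22 (adjusted p = 0.847 by limma). Without Control replicate 2 these were -0.098 and 0.046 and that of NDEA was 0.13, so the last pair turned in sign. Without Control replicate 1 the difference of NDEA+CFT-1 from Control was -0.55 (unadjusted p = 0.0487, adjusted p = 1 by limma). Between the injected groups the differences were -0.22 for NDEA+CFT-1 against NDEA, -0.08 for NDEA+FYT against NDEA and -0.14 for NDEA+CFT-1 against NDEA+FYT, with adjusted p-values of 0.698, 1.00 and 0.952 by limma. Their 95% intervals together ran from -0.74 to 0.44, and NDEA+FYT minus NDEA turned to 0.078 without NDEA replicate 1.

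Across all 9 injected livers Afp averaged 11.8 ± 1.93 FPKM (SD, n = 9), a log2 difference from Control of -0.24 (SE 0.19) with an adjusted p of 0.822 by limma and an exact permutation p of 0.282. As deposited, this difference rested on Control replicate 2, since without that liver it was 0.024. In this fit neither Afp nor Gstp1 was called in any of the 7 comparisons.

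Libraries were also scaled by the median of ratios, because the median log2 difference of all genes between NDEA and Control was 0.20 as deposited and -0.04 after scaling. NDEA replicate 1 had the largest scaling factor, 1.40, and its Gstp1 became 2446 FPKM and its Afp 11.3 FPKM. After scaling, the NDEA livers had 2446, 44.4 and 1041 FPKM of Gstp1, against 20.9, 318 and 18.1 FPKM in Control. The injected livers then differed from Control by 3.27 on the log2 scale for Gstp1 (adjusted p = 0.968 by limma). For Afp the scaled Control livers had 10.8, 20.6 and 16.1 FPKM and the scaled NDEA livers 11.3, 11.5 and 11 FPKM. Control replicates 2 and 3 thus both lay above every scaled injected liver, the highest of which had 12.99 FPKM. Injected livers then differed from Control by -0.42 (SE 0.17) in Afp, with an unadjusted p of 0.0304 and an adjusted p of 0.968 by limma. In that scaled fit 510 of 11746 genes had an unadjusted p under 0.05. The exact permutation test gave p = 0.0727, or 0.509 after adjustment over the 14 comparisons, an adjustment that could not have passed 0.05 at any values. By group, the scaled Afp differences from Control were -0.41 for NDEA, -0.45 for NDEA+FYT and -0.38 for NDEA+CFT-1. Their unadjusted p-values by limma were 0.0698, 0.0504 and 0.0875, and none passed the adjusted threshold. Scaled Afp in NDEA had a coefficient of variation of 2.47%, below the 4.55% that counting error alone gives on average at these reads.

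**Figure D3:**
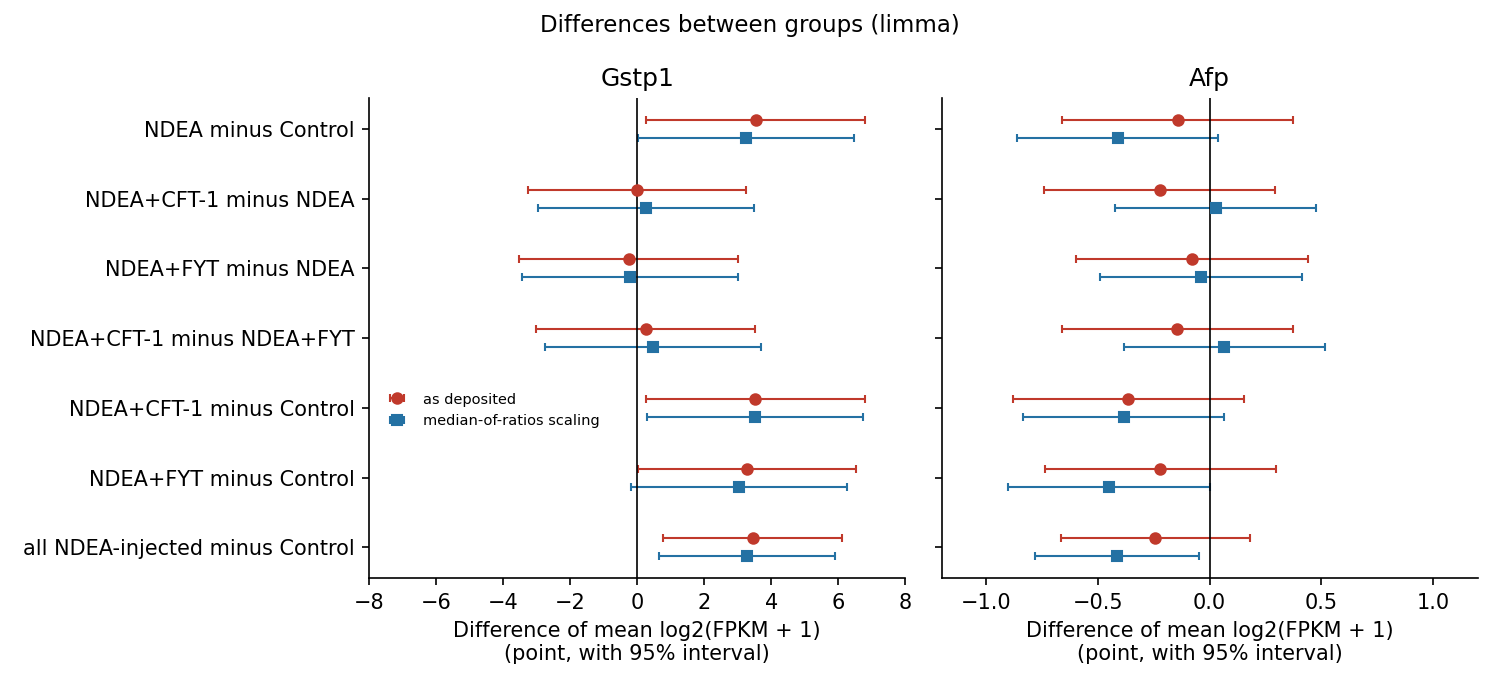
Differences between groups in mean log2(FPKM + 1), from limma, for Gstp1 at the left and Afp at the right, each on its own horizontal scale. Circles are values as deposited and squares are values after median-of-ratios scaling, with 95% intervals, and the vertical line is no difference. The 4 comparisons with Control lie between 3.04 and 3.53 for Gstp1, and all Afp differences lie between -0.45 and 0.07.

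Ordered by level, the livers of different groups were interleaved for both genes. For Gstp1 the order ran from NDEA replicate 1 through NDEA replicate 3, NDEA+CFT-1 replicate 3, NDEA+FYT replicate 3, NDEA+CFT-1 replicate 2 and NDEA+FYT replicate 2 to Control replicate 2, which was the 7th. NDEA+CFT-1 replicate 1, NDEA+FYT replicate 1 and NDEA replicate 2 came next, and Control replicates 1 and 3 were last. The counting intervals of neighbours overlapped for only 1 neighbouring pair, NDEA replicate 3 and NDEA+CFT-1 replicate 3. For Afp as deposited, Control replicate 2 and NDEA replicate 1 stood clear of the livers below them, and from the 3rd liver to the 12th all neighbouring intervals overlapped. After scaling, Control replicate 2 (20.6 FPKM) was followed by Control replicate 3 (16.1 FPKM), and NDEA replicate 1 (11.3 FPKM) lay among the other livers, which ran from 9.27 to 12.99 FPKM. At the level of groups the order by mean FPKM as deposited was NDEA, NDEA+CFT-1, NDEA+FYT and Control for Gstp1 and Control, NDEA, NDEA+FYT and NDEA+CFT-1 for Afp, and limma called no neighbouring groups in either order different after adjustment. After scaling the order of mean Afp was Control (15.8), NDEA+CFT-1 (11.6), NDEA (11.3) and NDEA+FYT (10.96), and on the mean log2 scale scaled Gstp1 stood at 9.19 in NDEA+CFT-1 and 8.93 in NDEA.

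The spread between livers of the same group set the genes apart. The within-group SD of log2(FPKM + 1), pooled over the groups, was 2.2 for Gstp1 and 0.300 for Afp, against a median of 0.299 over the 11854 genes. Only 12 of the 11854 genes had a larger SD than Gstp1, and 0 of the 1000 genes nearest to it in mean level did. Afp was ordinary in this respect, since 49.7% of all genes and 401 of the 1000 nearest in level had a larger SD. Over all 12 livers Gstp1 ranged over 7.84 on the log2 scale, exceeded by 7 genes, and Afp over 1.08. After median-of-ratios scaling the SDs were 2.10 for Gstp1, with 12 of 11746 genes above it, and 0.258 for Afp.

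**Figure D4:**
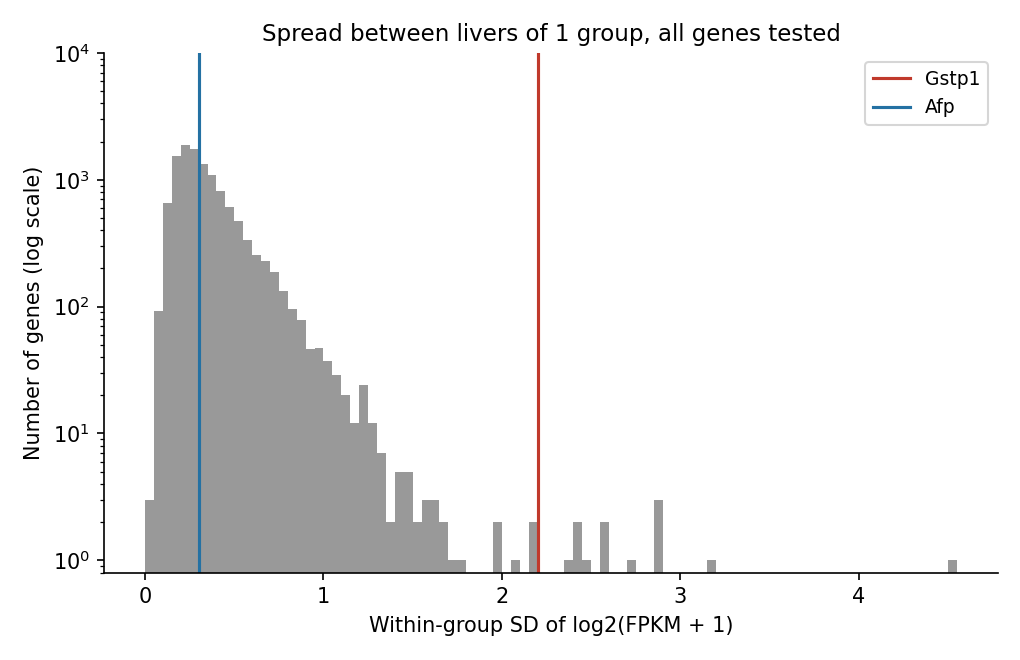
Number of genes, on a logarithmic vertical axis, by within-group SD of log2(FPKM + 1) on the horizontal axis, for the 11854 genes tested. Vertical lines mark Gstp1 at 2.2, far in the right tail, and Afp at 0.300, near the median of 0.299.

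Gstp1 and Afp were compared liver by liver. The ratio of Gstp1 to Afp FPKM was 1.94, 15.5 and 1.12 in Control, 216, 3.86 and 95 in NDEA, 21.9, 72.7 and 81.7 in NDEA+CFT-1 and 13.3, 55.7 and 75.9 in NDEA+FYT. Gstp1 exceeded Afp in all 12 livers, least in Control replicate 3 and most in NDEA replicate 1. Over the 12 livers the log2 levels had a Pearson's r of 0.211 (permutation p = 0.537) and a Spearman's rho of 0.140 (permutation p = 0.671). Leaving out Control replicates 1 and 3, the livers farthest from the median of Gstp1, gave an r of 0.180. Leaving out single livers gave an r from 0.040, without NDEA replicate 1 (rho -0.064), to 0.304, without Control replicate 2. After scaling the r was -0.155. Deviations from the group means had an r of 0.670 (permutation p = 0.0147, 0.0589 adjusted over 4 correlations) and a rho of 0.587 (permutation p = 0.0498, 0.0996 adjusted). With scaled values that r was 0.427 (permutation p = 0.171). Deviations cancel out within each group, but the permutation shuffled them over all livers regardless of group. The p-values of these correlations of deviations are therefore likely too small. Within groups, the liver with the most Gstp1 also had the most Afp as deposited in Control, NDEA and NDEA+CFT-1, whereas in NDEA+FYT it had the least.

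**Figure D5:**
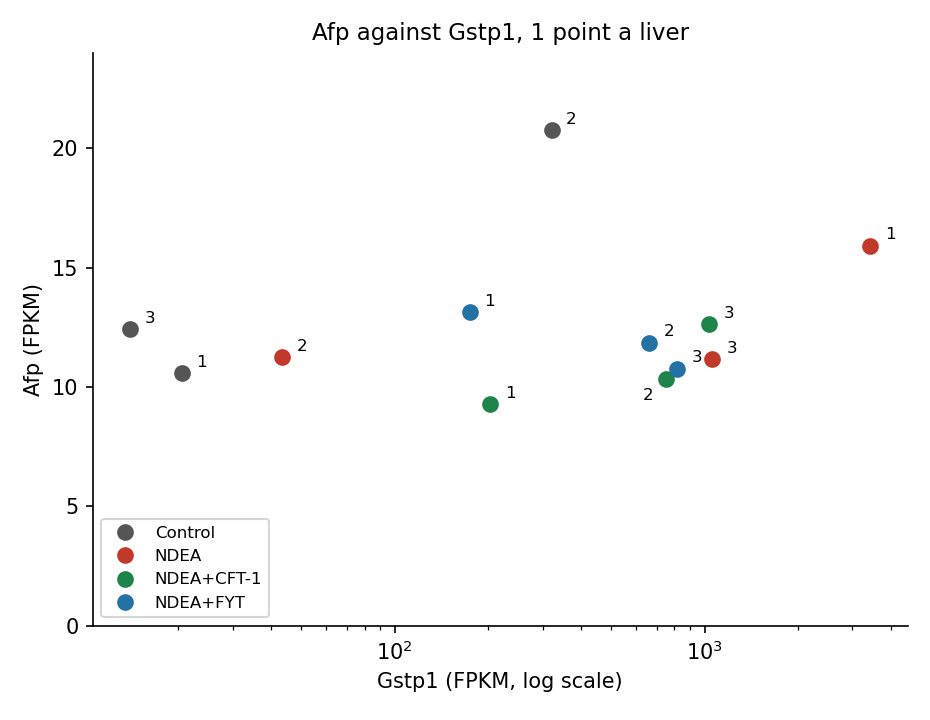
Afp in FPKM on a linear vertical axis against Gstp1 in FPKM on a logarithmic horizontal axis, with 1 point per liver, coloured by group and numbered by replicate. Gstp1 runs from 14 to 3433 FPKM while Afp stays between 9.28 and 20.8 FPKM, and Pearson's r of the log2 levels is 0.211.

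Other genes with a pattern like that of Gstp1 over the 12 livers were counted as a description. Of 11853 other genes, 238 (2.01%) had a Pearson's r above 0.8 with Gstp1 and 22 had an r above 0.9, whereas 24 had an r below -0.8. ENSRNOG00000047697 was the most alike, with an r of 0.958 and a level of 0.120 to 12.7 FPKM. ENSRNOG00000009734 followed with an r of 0.948, and its level ran from 0.431 to 740 FPKM. ENSRNOG00000011361 was the most opposite, with an r of -0.900 and a level of 70.5 to 114 FPKM. For Afp, only 2 genes had an r above 0.8 and 0 had an r above 0.9, the best being 0.870. These correlations share the depth and composition of the same 12 libraries.

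RefSeq lists 2 Gstp genes and 4 Gstp pseudogenes in the rat. Reads shared by near-identical copies would not have been counted, because the authors kept uniquely mapped reads, so the level of Gstp1 is uncertain to that extent. How many reads this concerns was not tested.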

How the data were processed

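Liver RNA, taken as that of 12 rats, was sequenced as paired reads. Per the labels and the methods, the authors trimmed reads with Trimmomatic, mapped them with HISAT2 to Rnor_6.0, took PCR duplicates out, ran HTSeq 0.6.1 on the uniquely mapped reads and deposited FPKM values, 1 column per library. The annotation is not given in the sources used here. Groups and replicate numbers came from the sample titles.

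From these, log2(FPKM + 1) was tested with limma 3.58.1 (R 4.3.3; lmFit, contrasts, eBayes with a trend) over 11854 IDs (mean FPKM 1 or more), with 4 groups in 1 fit and Benjamini-Hochberg adjustment over all genes (threshold 0.05). Folds are of FPKM + 1 and understate changes of low genes. Permutation tests were two-sided, in scipy 1.17.1. Scaling used median-of-ratios factors over IDs above 0 in every library. Reads were recovered from the FPKM as the smallest whole numbers that fit, within 0.001 reads or 3e-07 of the value, for 100% of IDs above 0, and implied lengths of 769 bases for Gstp1 and 1990 for Afp. They give 96.8% to 98.1% of the depth. The fit was also run on simulated data, which is not reported here and backs no result above.

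The genes, lists and tests were chosen with earlier results of these data known. The named genes were to be the pair in every comparison, the genes with a symbol most like them, and members of fixed lists (regulators, glutathione S-transferases, the albumin family, tumor markers, cell types). The RefSeq table pairs 0 Ensembl IDs with symbols, so those lists were not analysed here, and the IDs most like or opposite to Gstp1 were named after their values were seen. The symbols of the pair came with their IDs. Alternatives were another pseudocount, filters, scalings, the replicate number as a block, library weights and each library left out. Fits of only the groups compared and eBayes without a trend were run too. The voom fit and gene-by-gene weights were added after seeing the data.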

Additional observations from a re-analysis of the deposited data

How the results depend on the processing

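Each group has 3 livers. The fewest reads were 266 for Gstp1 and 418 for Afp. For scaled Afp, counting error alone gives on average a coefficient of variation of 4.06% in Control, 4.55% in NDEA, 4.598% in NDEA+CFT-1 and 4.53% in NDEA+FYT, where 31.0%, 2.47%, 17.6% and 7.47% were measured. Over 14 results (2 genes in 7 comparisons) and 22 to 23 alternatives each, 2 of 320 refits passed the threshold and 20 turned the sign. Many of the 320 could not turn a sign. Another filter, the replicate block, no trend, or leaving out a liver of a group not compared returns the same difference. Gstp1 stayed above Control in every refit of the 4 comparisons with Control.

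Both calls came with REML library weights, an estimate that stopped before it converged: Gstp1 in NDEA minus Control was 4.89 (adjusted p = 0.00843 by limma) and in all NDEA-injected minus Control 3.90 (adjusted p = 0.0332). These weights called 1613 and 405 of all 11854 genes in the 2 comparisons, against 0 in the same fit without weights, and ran from 0.106 for NDEA replicate 1 to 13.6 for NDEA replicate 3. Weights estimated gene by gene, added after seeing the data, gave 3.67 (adjusted p = 0.476) and 3.36 (adjusted p = 0.313). Over the alternatives the adjusted p ran from 0.00843 to 0.998 for the first and from 0.0332 to above 0.999 for the second. REML weights also turned Afp in NDEA+FYT minus NDEA to 0.089 and Gstp1 in NDEA+CFT-1 minus NDEA+FYT to -0.76, and gene-by-gene weights turned them to 0.072 and -0.24. Median-of-ratios scaling gave 0.26 for Gstp1 and 0.027 for Afp in NDEA+CFT-1 minus NDEA, 0.066 for Afp in NDEA+CFT-1 minus NDEA+FYT (0.00409 with quantile normalization) and an r of -0.155 between the genes.

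Leaving out each liver gave these ranges. Gstp1 ran from 2.21 to 5.34 in NDEA minus Control, 2.70 to 4.91 in NDEA+CFT-1 minus Control, 2.45 to 4.67 in NDEA+FYT minus Control, 2.62 to 4.83 in all NDEA-injected minus Control, -1.82 to 1.32 in NDEA+CFT-1 minus NDEA, -2.06 to 1.07 in NDEA+FYT minus NDEA and -0.44 to 0.95 in NDEA+CFT-1 minus NDEA+FYT. Afp ran from -0.33 to 0.13 in NDEA minus Control, -0.41 to 0.046 in NDEA+FYT minus Control, -0.43 to 0.024 in all NDEA-injected minus Control, -0.16 to 0.078 in NDEA+FYT minus NDEA, -0.55 to -0.098 in NDEA+CFT-1 minus Control, -0.34 to -0.066 in NDEA+CFT-1 minus NDEA and -0.26 to -0.053 in NDEA+CFT-1 minus NDEA+FYT. The first 3 Afp signs turned without Control replicate 2 and that of NDEA+FYT minus NDEA without NDEA replicate 1. What caused these turns was not tested.

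Replicate numbers are shared between groups. Over all groups, deviations of same-numbered livers had correlations of -0.467 to 0.282, over 0.1 in 7 of 18 pairs. The lowest were pairs with NDEA, whose livers also reached 0.388 with a liver of another number. Among the other groups, same-numbered pairs ran from -0.068 to 0.282 and pairs of unlike number from -0.248 to 0.083. Whether the numbers mark a shared batch was not tested. Only between Control and NDEA+CFT-1 were all 3 over 0.1 (0.217 to 0.282). With the replicate number as a block, Gstp1 in NDEA minus Control was 3.53 with an unadjusted p of 0.0610 and an adjusted p of 0.502 by limma, in NDEA+CFT-1 minus Control it was 3.53 with an unadjusted p of 0.0615 and an adjusted p of 1, and no call changed.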
